A study of Mus musculus with 22 samples.

Results

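The genes described here are 41 genes that cells use to enter and complete mitosis: the kinases, cyclins and transcription factor of mitotic entry, the spindle checkpoint, the kinetochore, the mitotic kinesins, spindle assembly, cytokinesis and chromosome structure. They were chosen by name for their function, but with earlier results of these data known. All 41 were matched among the 19938 genes measured, with Sgol1 found under its current symbol Sgo1. Expression was measured on 22 Mouse Gene 1.0 ST arrays of islets, tumours and metastases of the RIP1-TAG2 mouse, whose transgene places a viral tumour antigen under the insulin promoter of beta cells. All 22 arrays carry that genotype label, the normal islets included, so there is no group without the transgene. The groups are normal islets (3 arrays), hyperplastic islets (3 arrays), angiogenic islets (3 arrays), islet tumours (5 arrays), met-like primary tumours (5 arrays, called metastasis-like primaries below) and liver metastases (3 arrays). The labels give neither the age of the mice nor how a primary was assigned to the metastasis-like class, and they do not say which arrays came from separate animals, so p-values measure only the spread between these arrays. Arrays are named by their titles, such as NormalI-93, III-8023-MLP (a metastasis-like primary) and I-9820-Met (a liver metastasis).

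Mitosis is run by a set of genes that most resting cells hold at low level and that dividing cells switch on together late in the cycle. The kinase Cdk1 with its cyclins starts mitosis, the spindle captures chromosomes through kinetochores, and the spindle checkpoint holds the cell until every chromosome is attached. Cdc20 then activates the anaphase promoting complex, separase (Espl1) cuts the ring that holds sister chromatids together, and cytokinesis divides the cell. Adult beta cells divide rarely, and the viral antigen of this model binds the retinoblastoma and p53 proteins, which otherwise restrain the cycle. Many promoters of this class carry CCAAT boxes, bound by the factor NF-Y, and a short cell cycle homology element of the form TTTGAA or TTTAAA, bound by the DREAM and Foxm1 complexes.

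The 250 bases upstream of the transcription start are shown for the 3 members with the largest and the 3 with the smallest change from normal to hyperplastic islets, because they let the promoters at both ends of that response be compared (RefSeq, GRCm38.p6, 5′ to 3′ toward the start). Capitals mark the NF-Y motif CCAAT, the cell cycle homology letters TTTGAA or else TTTAAA, and the E2F-type letters TTTGGCGC or TTTCGCGC or else GGCGGGAA. Both strands were searched, so CCAAT also appears as ATTGG, while TTTGAA also appears as TTCAAA. The largest changes were those of Bub1, a checkpoint kinase, at chr2:127831860-127832109 (minus strand), Top2a, the topoisomerase that untangles sister DNA, at chr11:99024190-99024439 (minus strand), and Mki67, which coats mitotic chromosomes, at chr7:135716380-135716629 (minus strand).
Bub1: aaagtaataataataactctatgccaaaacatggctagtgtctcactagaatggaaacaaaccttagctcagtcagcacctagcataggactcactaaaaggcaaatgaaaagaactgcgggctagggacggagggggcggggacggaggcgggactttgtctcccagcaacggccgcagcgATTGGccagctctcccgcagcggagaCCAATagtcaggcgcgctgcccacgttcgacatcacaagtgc
Top2a: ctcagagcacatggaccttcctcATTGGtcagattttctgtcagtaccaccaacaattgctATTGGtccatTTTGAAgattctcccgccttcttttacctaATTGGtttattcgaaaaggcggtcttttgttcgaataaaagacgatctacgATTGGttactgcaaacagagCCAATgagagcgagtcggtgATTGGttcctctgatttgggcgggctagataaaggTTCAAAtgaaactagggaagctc
Mki67: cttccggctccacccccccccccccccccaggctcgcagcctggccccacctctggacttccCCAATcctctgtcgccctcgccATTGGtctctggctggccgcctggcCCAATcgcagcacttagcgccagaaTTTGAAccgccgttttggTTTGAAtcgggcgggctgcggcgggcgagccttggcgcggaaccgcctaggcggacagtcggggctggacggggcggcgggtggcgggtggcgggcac
The smallest were those of Espl1, at chr15:102296043-102296292 (plus strand), Cdc20, at chr4:118437344-118437593 (minus strand), and Spc25, a subunit of the NDC80 kinetochore complex, at chr2:69206214-69206463 (minus strand).
Espl1: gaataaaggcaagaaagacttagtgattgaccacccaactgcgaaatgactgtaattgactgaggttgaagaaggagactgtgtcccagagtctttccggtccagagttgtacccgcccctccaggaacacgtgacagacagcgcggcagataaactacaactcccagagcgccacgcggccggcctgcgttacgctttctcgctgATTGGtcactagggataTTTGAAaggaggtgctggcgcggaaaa
Cdc20: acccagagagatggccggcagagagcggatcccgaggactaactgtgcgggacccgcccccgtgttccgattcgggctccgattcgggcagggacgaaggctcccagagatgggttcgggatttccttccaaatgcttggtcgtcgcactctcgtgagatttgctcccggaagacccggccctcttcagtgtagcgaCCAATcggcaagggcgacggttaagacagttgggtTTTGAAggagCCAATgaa
Spc25: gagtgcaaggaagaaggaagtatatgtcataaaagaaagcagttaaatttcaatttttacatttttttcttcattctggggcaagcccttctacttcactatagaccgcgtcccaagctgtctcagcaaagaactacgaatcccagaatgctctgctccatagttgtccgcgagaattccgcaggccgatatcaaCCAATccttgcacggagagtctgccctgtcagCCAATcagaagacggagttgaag

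The window of Top2a held 6 CCAAT matches and 2 TTTGAA matches, and that of Mki67 held 3 and 2. Bub1 and Spc25 each held 2 CCAAT matches and no TTTGAA or TTTAAA, although they stand at opposite ends of the response. Cdc20 held 2 CCAAT matches and 1 TTTGAA, and Espl1 held 1 of each. A window of this length was given for 34 of the 41 members. Of these, 23 held CCAAT, against 34.5% of the 27025 genes with a window, 15 held TTTGAA, against 16.3%, and 5 held TTTAAA, against 12.1%. CCAAT together with TTTGAA or TTTAAA was found in 14 members and in 9.0% of all windows. The E2F-type letters TTTGGCGC were found in 1 member (Kif15) and in 0.4% of all windows, TTTCGCGC in 1 (Cdk1) and in 0.3%, while GGCGGGAA was found in 1 (Ncapg2) and in 1.9%. A match is a run of letters and does not show that a factor binds there.

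The deposited array medians lay between 7.08 and 7.22 log2, and the highest correlation between 2 arrays was 0.993. The number of arrays limits the precision. Marker lists of other cell types differed between arrays. The mean of 9 acinar genes was 11.28, 11.78 and 8.93 log2 on the 3 normal arrays, the mean of 11 lymphocyte genes was 6.42 to 6.49 in normal and 6.86 to 8.12 in hyperplastic islets, and the mean of 11 hepatocyte genes was 10.40 to 10.84 in liver metastases against 6.53 to 6.77 in islet tumours and 7.35 to 7.70 in metastasis-like primaries. The hepatocyte mean also reached 8.21 and 8.83 on 2 angiogenic arrays. Beta-cell genes averaged 11.61 ± 0.03 log2 (SD, n = 3) in normal islets and 8.44 to 9.06 in metastasis-like primaries. Xist stood at 10.67 to 11.41 on all 9 islet arrays and at 5.33 to 6.46 on all 13 tumour and metastasis arrays, so whatever sets Xist cannot be told apart from stage where islets are compared with tumours. In bulk tissue, fewer dividing cells and less mitotic RNA per cell cannot be told apart.

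Normal and hyperplastic islets were compared to see the first step of islet overgrowth. Of the 41 mitotic genes, 40 were higher in hyperplastic islets and 0 were lower (limma, adjusted p below 0.05), beside 4.46% of all genes called higher and 4.17% called lower. The members' median change was 1.93 log2, against a median of -0.01 over all genes. For the same 40 genes every hyperplastic array lay above every normal array, which held for 12.4% of all genes. All 7 role groups took part, with medians from 1.64 for the checkpoint and sister separation genes to 2.35 for the cytokinesis genes. The exception was Spc25. In comparisons with normal islets, the SEs, intervals and p-values rest on a spread pooled over all groups. The members' median SD was 0.72 log2 in normal and 0.11 in hyperplastic islets, so by the median they understate the spread of the normal arrays. With only the arrays compared in the fit, 40 members were still called. The lowest adjusted p was then 0.0018 (limma), against 6.26e-06 in the fit over all arrays.

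**Figure D1:**
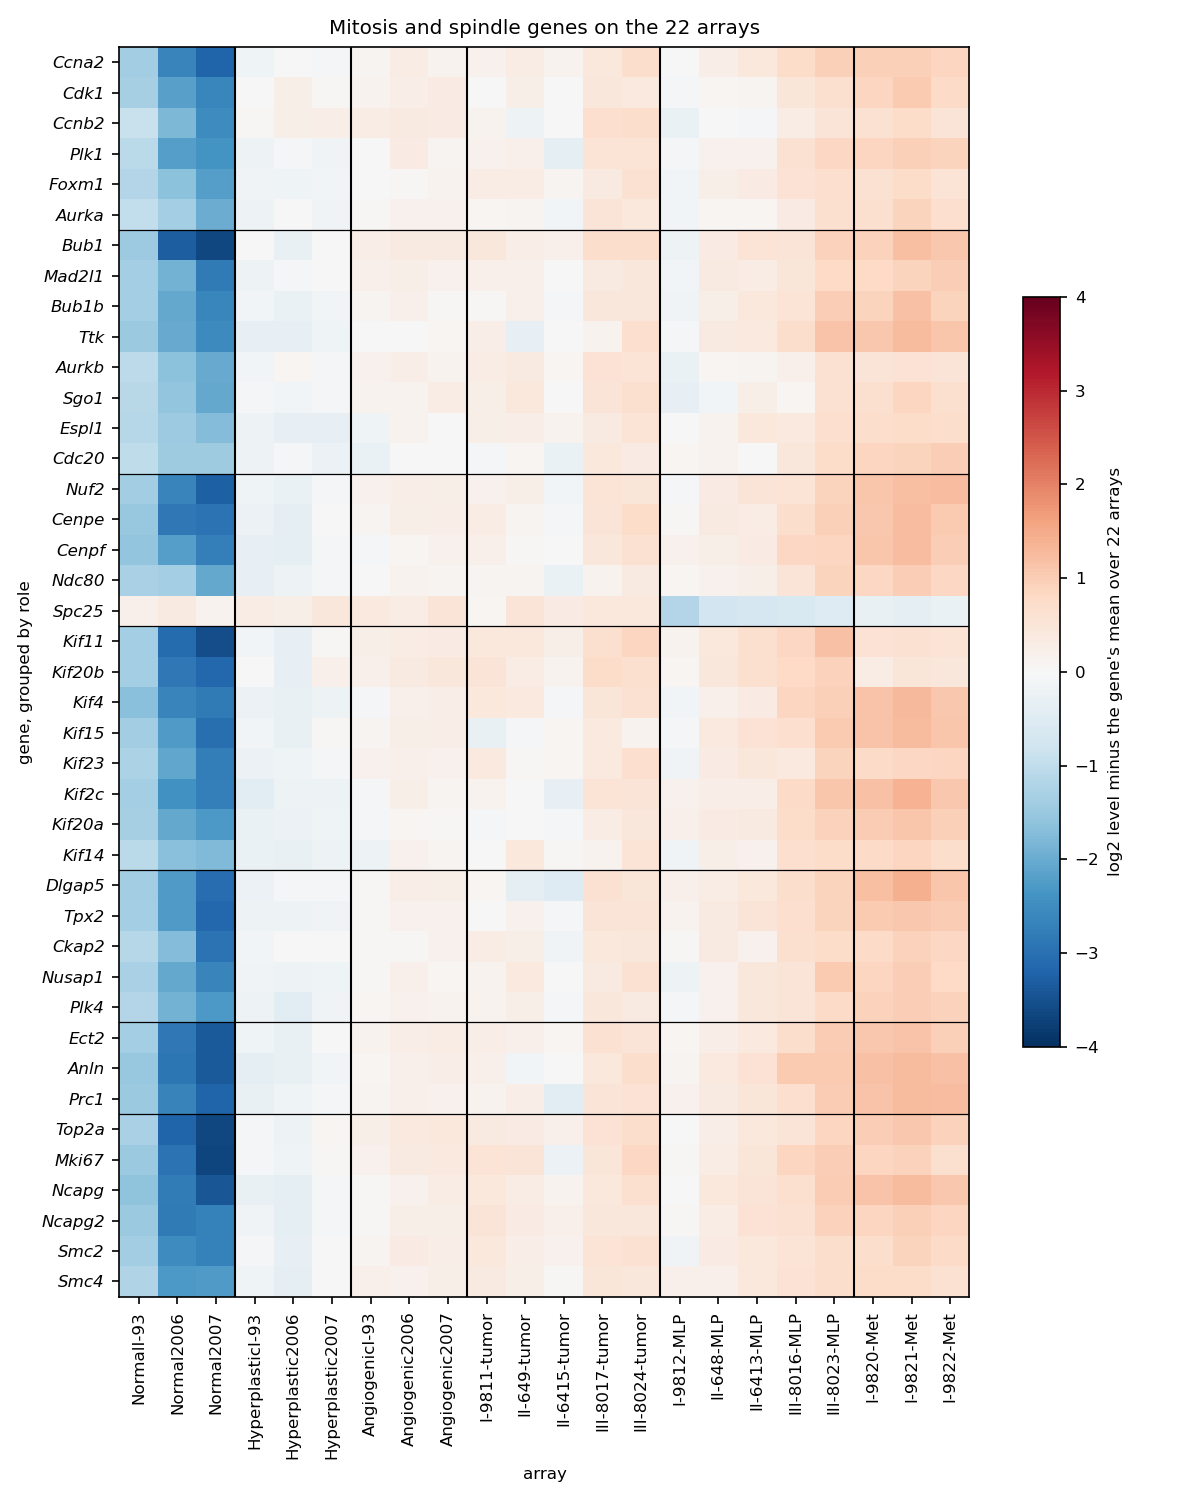
Log2 level of each of the 41 genes on the 22 arrays, minus that gene's mean over the arrays. Vertical lines part the 6 groups and horizontal lines the 7 roles. The 3 normal islet arrays on the left are low for every gene except Spc25, and NormalI-93 is less low than the other 2.

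Among the 6 genes of mitotic entry, Ccna2, the cyclin that spans S phase and early mitosis, changed most. It stood at 8.47, 7.22 and 6.67 log2 in NormalI-93, Normal2006 and Normal2007 and at 9.70, 9.85 and 9.82 in HyperplasticI-93, Hyperplastic2006 and Hyperplastic2007. All 3 normal arrays lay below the hyperplastic ones, and they differed from each other more than the hyperplastic arrays did. The rise was 2.34 ± 0.29 log2 (SE), or 5.05-fold (adjusted p = 1.77e-05). Aurka, the spindle pole kinase, changed least of these 6, from 8.12, 7.76 and 7.13 in normal to 8.91, 9.07 and 8.98 in hyperplastic islets. It rose by 1.32 ± 0.20 log2 (adjusted p = 0.000124). Cdk1 rose by 2.12, the cyclin Ccnb2 by 1.93, the kinase Plk1 by 1.76 and Foxm1, a transcription factor of this gene class, by 1.52 log2.

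All 8 checkpoint and sister separation genes rose. Bub1 stood at 7.46, 5.63 and 5.27 log2 on the normal arrays and at 8.92, 8.62 and 8.94 on the hyperplastic arrays, a rise of 2.71 ± 0.35 log2 or 6.52-fold (adjusted p = 2.48e-05). Its normal arrays differed among themselves by more than 2 log2 and still lay below all hyperplastic arrays. Cdc20, the activator of the anaphase promoting complex, stood at 7.28, 6.88 and 6.88 in normal and at 8.10, 8.26 and 8.05 in hyperplastic islets, and rose by 1.13 ± 0.18 log2 (adjusted p = 0.000166). Espl1 rose by 1.16, the shugoshin Sgo1, which protects centromeric cohesin, by 1.49, and Aurkb, the kinase that corrects faulty attachments, by 1.54. The checkpoint proteins Mad2l1 and Bub1b rose by 1.95 and 1.85 and the checkpoint kinase Ttk by 1.74 log2.

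Of the 5 kinetochore genes, 4 rose and Spc25 did not pass the test. Nuf2, a subunit of the NDC80 complex, stood at 7.48, 6.24 and 5.62 log2 in normal and at 8.71, 8.62 and 8.82 in hyperplastic islets, and rose by 2.27 ± 0.29 log2 (adjusted p = 2.15e-05). Ndc80, another subunit, rose by 1.37, and the large kinetochore proteins Cenpe and Cenpf by 2.23 and 1.91. Spc25, which sits in the same complex as Ndc80 and Nuf2, stood at 10.99, 11.13 and 10.94 in normal and at 11.07, 11.02 and 11.25 in hyperplastic islets. Its arrays overlapped, and the difference was 0.09 log2 with a 95% interval from -0.19 to 0.37 (adjusted p = 0.781). The intervals of the other 4 kinetochore genes began at 0.98 or higher.

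All 8 mitotic kinesins, the motors that build and move the spindle, rose. Kif11, the motor that pushes spindle poles apart, stood at 7.94, 6.24 and 5.75 log2 in normal and at 9.18, 8.97 and 9.34 in hyperplastic islets, a rise of 2.52 ± 0.34 log2 or 5.73-fold (adjusted p = 3.69e-05). Kif14, a motor of cytokinesis, stood at 6.48, 5.88 and 5.80 in normal and at 7.29, 7.28 and 7.35 in hyperplastic islets, and rose by 1.25 ± 0.20 log2 (adjusted p = 0.000193). The groups of both genes were apart on every array. A second, dimmer probe set for Kif14 averaged 4.52 and 4.48 in the same groups and showed no such difference. The other 6 rose by 1.67 (Kif20a) to 2.41 log2 (Kif20b).

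The 5 genes of spindle assembly and centrioles and the 3 cytokinesis genes all rose. Dlgap5, which stabilises spindle fibres, stood at 7.47, 6.60 and 5.80 log2 in normal and at 8.63, 8.81 and 8.77 in hyperplastic islets, a rise of 2.11 ± 0.31 (adjusted p = 7.09e-05). Plk4, the kinase of centriole duplication, stood at 6.90, 6.18 and 5.79 in normal and at 7.86, 7.63 and 7.92 in hyperplastic islets, a rise of 1.52 ± 0.21 (adjusted p = 4.21e-05). In both genes NormalI-93 was the highest and Normal2007 the lowest of the 3 normal arrays. Ect2, which activates the contractile ring, stood at 8.15, 6.65 and 6.16 in normal and at 9.33, 9.22 and 9.52 in hyperplastic islets, a rise of 2.37 ± 0.31 (adjusted p = 2.72e-05). Prc1, which bundles the central spindle, stood at 7.83, 6.65 and 6.13 in normal and at 9.03, 9.13 and 9.24 in hyperplastic islets, a rise of 2.26 ± 0.30 (adjusted p = 2.55e-05). These 2 genes and Anln, a scaffold of the ring that rose by 2.35, moved by 2.26 to 2.37 log2.

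All 6 chromosome structure genes rose. Top2a stood at 9.20, 7.30 and 6.86 log2 in normal and at 10.46, 10.31 and 10.60 in hyperplastic islets, a rise of 2.67 ± 0.35 or 6.36-fold (adjusted p = 2.65e-05). Its second, dimmer probe set averaged 4.38 and 4.88 in the same groups. Smc4, the core subunit of condensin, which compacts chromosomes, stood at 9.04, 7.92 and 7.97 in normal and at 10.06, 9.84 and 10.21 in hyperplastic islets, a rise of 1.73 ± 0.20 (adjusted p = 1.20e-05). Mki67 rose by 2.64 and the condensin genes Ncapg, Ncapg2 and Smc2 by 2.36, 2.14 and 2.09 log2.

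**Figure D2:**
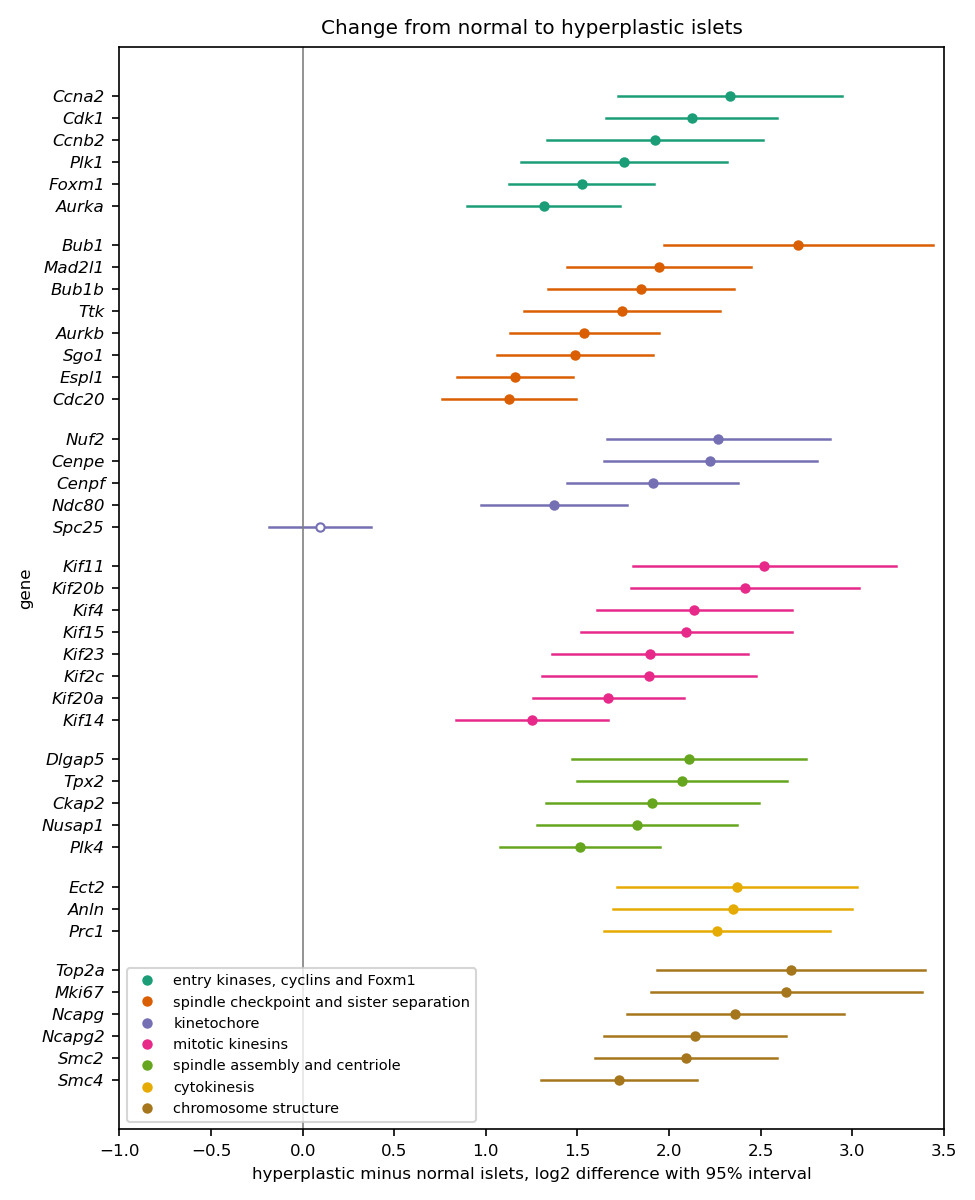
Difference between hyperplastic and normal islets in log2 (points) with its 95% interval (lines) for each of the 41 genes, coloured by role. Filled points passed the test. The intervals of 40 genes lie above 0, from Cdc20 at 1.13 to Bub1 at 2.71, and that of Spc25 spans 0. They use a spread pooled over all groups, and the normal arrays varied more by the members' median SD.

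The normal islets were uneven. NormalI-93 was the highest normal array for 40 of 41 members and Normal2007 the lowest for 38, and 37 members fell in the order NormalI-93, Normal2006, Normal2007. The members' median difference between NormalI-93 and Normal2007 was 1.34 log2, against 0.00 over all genes. NormalI-93 lay 1.21 log2 below the hyperplastic mean by the members' median, Normal2006 2.09 below and Normal2007 2.60 below (medians of -1.21, -2.09 and -2.60). Marker lists of other cells also differed among these arrays. In the order NormalI-93, Normal2006, Normal2007, the mean of the beta-cell markers was 11.63, 11.60 and 11.58 log2, and that of 7 markers of other islet endocrine cells was 10.89, 11.07 and 11.15, opposite to the order of the members. The acinar mean differed most of the marker lists, at 11.28, 11.78 and 8.93. The lymphocyte mean was 6.49, 6.42 and 6.45, and that of 10 fibroblast and pericyte markers was 8.71, 7.83 and 8.49. The part of tissue make-up in the unevenness was not tested. Without NormalI-93 the members' median change to hyperplastic islets was 2.31 log2. The members' median SD was 0.72 in normal islets and 0.11 in hyperplastic islets, against 0.13 and 0.11 over all genes.

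Genes of the same processes outside these 41 were followed in lists chosen for function. Of 55 other mitotic genes, 54 were higher in hyperplastic islets and 0 lower, beside 4.46% and 4.17% of all genes, by a median of 1.58 log2. The condensin subunit Ncaph rose by 2.07 ± 0.23, the centriole gene Stil by 2.20 ± 0.24 and Cdca5, the cohesin stabiliser sororin, by 1.96 ± 0.22. The 1 gene that did not pass was Pttg1, securin, which holds separase inactive until anaphase and was singled out after its values were seen. Pttg1 stood at 7.70, 7.84 and 7.62 log2 in normal and at 7.51, 7.60 and 7.71 in hyperplastic islets (difference -0.12, adjusted p = 0.733), while separase itself rose.

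In the other lists a smaller share of the genes passed the test, beside 4.46% of all genes called higher and 4.17% called lower. None of the 13 anaphase promoting complex subunits passed the test (limma), with 1 at an unadjusted p below 0.05 and a median of 0.04 log2. Of 12 cohesin genes, 5 were higher and 0 lower, led by Esco2, the acetyltransferase that locks cohesin in S phase (1.80 ± 0.26). The ring subunits Smc1a and Smc3 rose by 0.57 and 0.41. Of 20 mitotic exit and constitutive spindle genes, 7 were higher and 0 lower, led by Dsn1 (1.53 ± 0.20) and Nsl1 (1.13 ± 0.16), subunits of the MIS12 kinetochore complex, and by Mis12 itself (0.61 ± 0.10). Of 14 regulators of late cell cycle transcription, 5 were higher and 1 lower, with differences from -0.49 to 1.52 log2. The pocket protein Rbl1 rose by 1.31 ± 0.15, the DREAM and MuvB subunit Lin9 by 1.52 ± 0.21 and Lin54 by 0.83 ± 0.13.

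Angiogenic islets, in which new vessels form, were compared with hyperplastic islets. No member passed the test, and 0 had an unadjusted p below 0.05 (limma), beside 2.29% of all genes called higher and 0.246% called lower. The members' median difference was 0.32 log2, against -0.04 over all genes. Every angiogenic array lay above every hyperplastic array for 38 of 41 members, which held for 9.75% of all genes. Markers of other cells moved with this step. All 10 fibroblast and pericyte markers were called higher, by a median of 1.68 log2, with means of 10.14 to 10.28 on the angiogenic and 8.46 to 8.71 on the hyperplastic arrays. Of 11 macrophage markers 7 were higher (7.96 to 8.62 against 7.38 to 7.59), as were 6 of 10 endothelial markers (9.02 to 9.42 against 8.39 to 8.52). Their part in the members' difference was not tested. The spread in the fit is estimated over all groups and includes the uneven normal islets. When only these 6 arrays were fitted, 36 members had an unadjusted p below 0.05 (limma) and still 0 passed after adjustment. With a term for the code that ends the array titles, 3 members had an unadjusted p below 0.05 (limma) and 0 passed. The shares of all genes with such a p in these fits were not counted, so the 36 and the 3 cannot be set against them. Kif11 had the largest difference, from 9.18, 8.97 and 9.34 log2 in hyperplastic to 9.55, 9.60 and 9.64 in angiogenic islets (0.44 ± 0.34, adjusted p = 0.633). Its groups did not overlap, and no member had a negative difference.

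Islet tumours were compared with each earlier stage. Against normal islets, 40 members were higher and 0 lower, beside 13.0% and 16.1% of all genes, by a median of 2.29 log2, with Bub1 (3.26), Kif11 (3.18) and Top2a (3.16) the largest. Spc25 was again the exception, at 0.12 log2 with an interval from -0.13 to 0.37. Against hyperplastic islets, 1 member was higher and 0 lower, beside 2.73% and 4.23% of all genes, by a median of 0.46 log2. Every tumour array lay above every hyperplastic array for 23 members, beside 6.86% of all genes. The gene that passed was Espl1, which stood at 7.81, 7.69 and 7.69 log2 in hyperplastic islets and at 8.26, 8.28, 8.15, 8.37 and 8.56 in the tumours I-9811, II-649, II-6415, III-8017 and III-8024. It rose by 0.60 ± 0.14 log2 (adjusted p = 0.00996). The call was lost without Hyperplastic2006 (0.57, adjusted p = 0.0528) and in a fit with a term for the lymphocyte markers (0.61, adjusted p = 0.0655). The count of 1 became 11 when only the arrays compared were fitted and 9 without the normal arrays, and the shares of all genes in those fits were not counted. Markers of other cells also moved. Of 7 other islet endocrine markers, 6 were called lower in tumours than in normal islets, by a median of -3.28 log2. Against hyperplastic islets 4 of the 7 were lower (median -2.82), as were 4 of 11 lymphocyte markers. Of 11 macrophage markers, 7 were higher than in normal and 4 than in hyperplastic islets. The part of these cells in the members' differences was not tested.

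Against angiogenic islets, 0 members passed the test and 1 had an unadjusted p below 0.05 (limma), beside 3.09% of all genes called higher and 6.45% called lower. The median difference was 0.11 log2. It was 0.051 without III-8024-tumor, 0.071 without III-8017-tumor and 0.203 without II-6415-tumor. Of the fibroblast and pericyte markers 8 of 10 were lower in tumours, by a median of -1.38 log2, as were 7 of the 10 endothelial markers. Also lower were 5 of 7 other islet endocrine (median -2.05), 8 of 11 lymphocyte (-1.34) and 9 of 11 hepatocyte markers (-1.22). None of these lists had a marker called higher, and their part was not tested. Espl1 had the largest difference, 0.31 ± 0.14 log2 (adjusted p = 0.163), with angiogenic arrays at 7.85, 8.16 and 8.03. Kif15, a kinesin that backs up Kif11, had the most negative, -0.16 ± 0.25 (adjusted p = 0.717). It stood at 8.48, 8.59 and 8.64 in angiogenic islets and at 8.08, 8.28, 8.44, 8.74 and 8.50 in tumours. The groups of both genes overlapped.

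Within the primary tumours, the mitotic genes differed between arrays more than most genes did. The median SD of the members was 0.24 log2 among islet tumours and 0.33 among metastasis-like primaries, against 0.15 and 0.13 over all genes. Among the liver metastases, which all carry the title prefix I, the members' median SD was 0.08, against 0.09 over all genes. The mean of the 41 members was 9.16, 9.13, 8.92, 9.40 and 9.49 log2 in the islet tumours I-9811, II-649, II-6415, III-8017 and III-8024. It was 8.90, 9.17, 9.28, 9.51 and 9.77 in the metastasis-like primaries I-9812, II-648, II-6413, III-8016 and III-8023. In both classes the 2 arrays with the title prefix III were the highest. Both lay above the other 3 arrays for 33 of 41 members in islet tumours and for 37 in metastasis-like primaries, against 10.1% and 13.4% of all genes. III-8023-MLP was the highest metastasis-like primary for all 41 members and I-9812-MLP the lowest for 40. The labels do not say what the prefixes stand for, and their part in the spread was not tested.

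Metastasis-like primaries and islet tumours differed by a median of 0.12 log2 over the members. No member was higher and 1 was lower, beside 12.3% of all genes called higher and 14.2% called lower. The member that fell was Spc25. It stood at 10.86, 11.30, 11.11, 11.21 and 11.22 log2 in the islet tumours, in the order above, and at 9.61, 10.01, 10.12, 10.18 and 10.26 in the metastasis-like primaries. Every metastasis-like primary lay below every islet tumour, and the fall was -1.10 ± 0.10 log2, 2.15-fold lower (adjusted p = 5.47e-08). The other 2 measured NDC80 subunits did not pass. Ndc80 differed by 0.30 and Nuf2 by 0.17 log2. Kif15 had the largest positive difference, 0.49 ± 0.21 (adjusted p = 0.106), and Kif20a, a kinesin of the central spindle, had the lowest adjusted p of the members that did not pass (0.39 ± 0.15, adjusted p = 0.0666). The adjusted p of Kif20a was 0.0305 without III-8024-tumor and 0.0357 without I-9812-MLP, and that of Kif15 was 0.0361 without I-9812-MLP. The members' median was 0.010 without III-8023-MLP, 0.056 without II-6415-tumor, 0.076 without III-8016-MLP, 0.189 without III-8024-tumor and 0.237 without I-9812-MLP. All 9 beta-cell markers and 8 of 10 endothelial markers were lower in metastasis-like primaries, with endothelial means of 7.58 to 8.0 log2 against 8.40 to 8.82 in islet tumours, and their part in these differences was not tested. Without I-9812-MLP the count of called members was 3, of which 2 were higher, and the share of all genes in that fit was not counted.

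Spc25 lies next to G6pc2 in the RefSeq gene table (GRCm38.p6, chromosome 2). G6pc2 encodes a glucose-6-phosphatase of beta cells. It stood at 12.08, 11.75, 11.39, 12.26 and 12.04 log2 in the islet tumours and at 7.96, 9.27, 9.24, 8.77 and 8.20 in the metastasis-like primaries, a fall of -3.22 ± 0.26 (adjusted p = 5.98e-09). In liver metastases G6pc2 stood at 9.09, 9.21 and 10.65 and Spc25 at 10.48, 10.39 and 10.53, both between the levels of the primary classes by their means. From normal islets to islet tumours G6pc2 fell by 1.10 log2 (adjusted p = 0.00822), and the difference of Spc25 was 0.12 (adjusted p = 0.516). Whether the signals of these neighbours are linked was not tested.

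**Figure D3:**
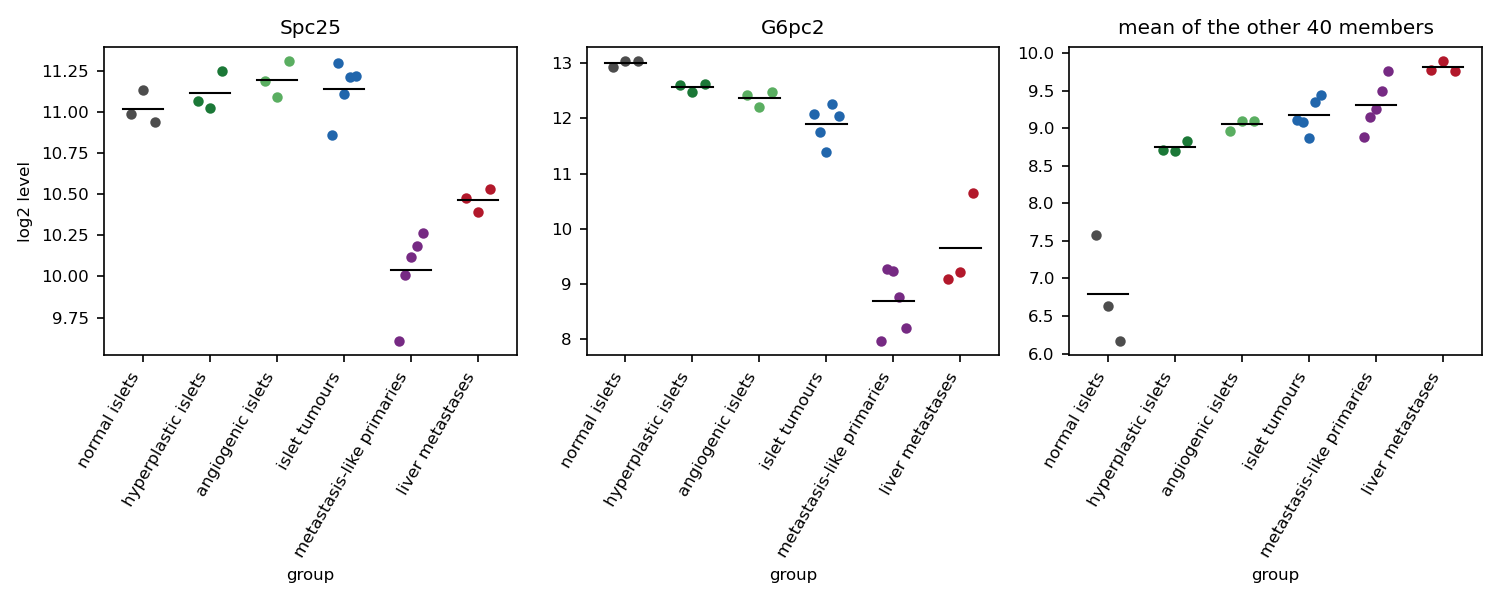
Log2 level of Spc25 (left), of its neighbour G6pc2 (middle) and the mean of the other 40 members (right) on each array (points) by group, with group means (bars); the vertical axes differ. Spc25 is high in islets and islet tumours and lowest in metastasis-like primaries, where G6pc2 is lowest too, while the other 40 genes are lowest in normal islets and highest in liver metastases.

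Liver metastases were compared with islet tumours. Of the 41 genes, 24 were higher and 1 was lower, beside 17.3% and 19.3% of all genes, and the median difference was 0.63 log2 against -0.03 over all genes. Every metastasis array lay above every islet tumour for 33 members, beside 17.6% of all genes. The rise was called for 5 of 8 checkpoint genes, 4 of 5 kinetochore genes, 5 of 8 kinesins, 3 of 5 spindle assembly genes, 3 of 3 cytokinesis genes, 3 of 6 entry genes and 1 of 6 chromosome structure genes. The 16 genes that did not pass included Mki67 (0.38) and Foxm1 (0.29). The 1 that fell was Spc25 (-0.67 ± 0.12, adjusted p = 0.000137). Markers of other cells differed too. All 9 acinar markers were called lower in the metastases, by a median of -1.61 log2, as were 8 of 9 beta-cell and 8 of 10 endothelial markers. Of 11 macrophage markers 7 were lower and 2 higher, and all 11 hepatocyte markers were higher. The part of tissue make-up in the members' difference was not tested.

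The 3 largest rises were those of Dlgap5, Kif15 and Kif2c. Dlgap5 stood at 8.95, 8.51, 8.33, 9.47 and 9.33 log2 in the islet tumours and at 10.07, 10.27 and 9.96 in I-9820-Met, I-9821-Met and I-9822-Met, a rise of 1.19 ± 0.27 or 2.27-fold (adjusted p = 0.00168). Kif15 stood at 8.08, 8.28, 8.44, 8.74 and 8.50 in the tumours and at 9.51, 9.64 and 9.46 in the metastases, a rise of 1.13 ± 0.25 (adjusted p = 0.00107). Kif2c, a motor that depolymerises microtubules at centromeres, stood at 9.05, 8.92, 8.57, 9.44 and 9.40 in the tumours and at 10.07, 10.29 and 9.96 in the metastases, a rise of 1.03 ± 0.25 (adjusted p = 0.00246). In all 3 genes the metastases lay above every islet tumour. With the mean of the hepatocyte markers as an added term in the fit, 0 members passed and 0 had an unadjusted p below 0.05 (limma), and the members' median was 0.47 log2. No array outside the metastases had a hepatocyte mean above 8.83, so this term and the group can hardly be told apart.

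Against metastasis-like primaries, 8 members were higher in the metastases and 0 lower, beside 7.80% and 7.87% of all genes, by a median of 0.53 log2. Every metastasis lay above every metastasis-like primary for 23 members, beside 11.4% of all genes. Of 9 acinar markers 6 were called lower in the metastases, by a median of -1.58 log2. Of 11 macrophage markers 6 were lower, and neither list had a marker called higher. Of 11 hepatocyte markers 9 were higher, as were 3 of 9 beta-cell markers. The part of tissue make-up in the members' difference was not tested. Kif4, a chromosome-bound kinesin, stood at 8.09, 8.41, 8.51, 9.04 and 9.14 log2 in the primaries and at 9.32, 9.48 and 9.26 in the metastases, a rise of 0.72 ± 0.23 (adjusted p = 0.0375). Cdk1 stood at 8.76, 8.88, 8.89, 9.29 and 9.44 in the primaries and at 9.67, 9.84 and 9.56 in the metastases, a rise of 0.64 ± 0.20 (adjusted p = 0.0333). Cdc20 stood at 8.36, 8.44, 8.29, 8.76 and 9.02 in the primaries and at 9.17, 9.18 and 9.27 in the metastases, a rise of 0.63 ± 0.16 (adjusted p = 0.00837). None of these 3 genes overlapped between the groups. The other 5 called were Spc25 (0.43), Sgo1 (0.62), Cenpf (0.62), Plk4 (0.57) and Ndc80 (0.50). The count depends on the fit: it was 28 without the normal islets and 0 with the hepatocyte covariate. Leaving out III-8023-MLP gave 23, leaving out I-9812-MLP, II-648-MLP or II-6413-MLP gave 2, 2 or 3, and leaving out I-9820-Met, I-9821-Met or I-9822-Met gave 1, 2 or 1. Shares of all genes called were not counted in these other fits, so the counts show only how far the members' calls moved.

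All 3 metastases carry the prefix I. Within that prefix, all 3 metastases lay above I-9812-MLP for 41 of 41 members, by a median of 0.94 log2, against 31.7% of all genes, and above I-9811-tumor for 39 of 41, by a median of 0.74, against 33.1%. There is 1 primary of each class with this prefix, so these values have no replicate check on the primary side. I-9812-MLP was also the lowest metastasis-like primary for 40 members, which favours a separation from it. Against the 4 primaries with the prefix III, whose mitotic genes were the highest, the metastases were higher for 38 members, against 46.8% of all genes, by a median of 0.35 log2, against -0.02 over all genes. All 3 metastases lay above all 4 of these primaries for 21 members, against 10.5% of all genes.

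**Figure D4:**
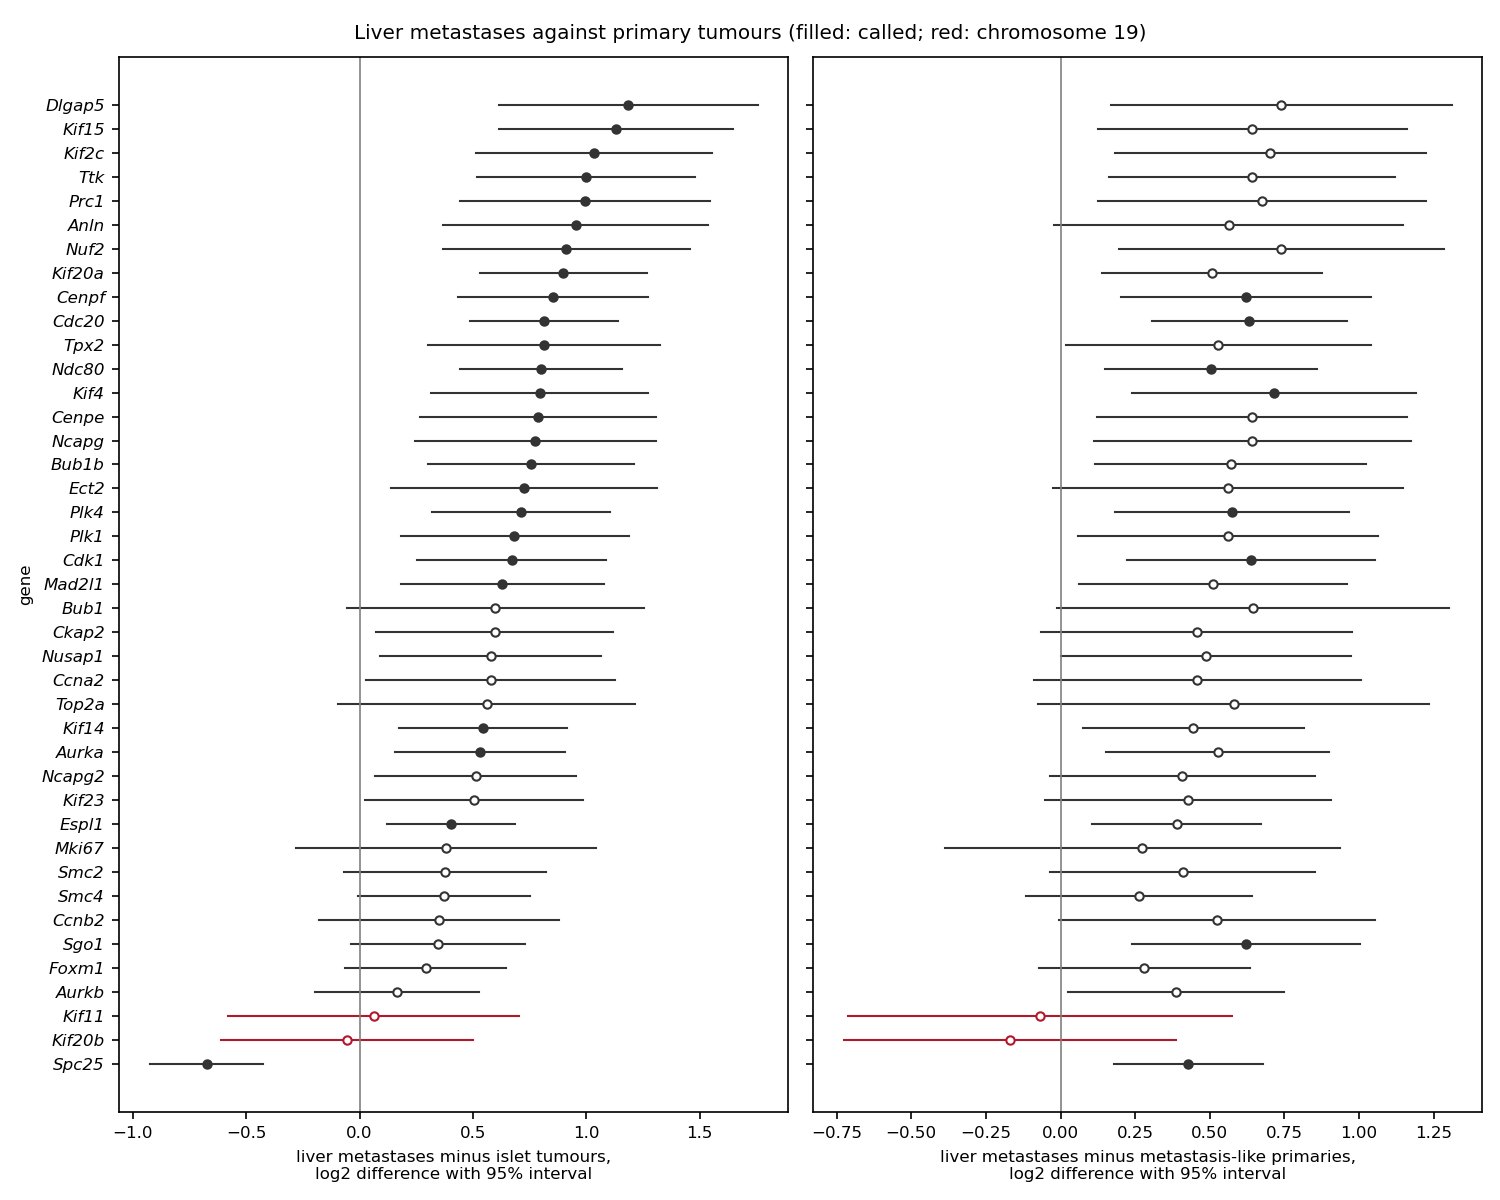
Difference in log2 between liver metastases and islet tumours (left) and metastasis-like primaries (right), with 95% intervals, for the 41 genes in the order of the left panel; the horizontal axes differ. Filled points passed the test, and red marks the 2 genes on chromosome 19. Apart from Spc25, Kif11 and Kif20b are the lowest in the left panel, and they alone are below 0 in the right panel.

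Kif11 and Kif20b, singled out after their values were seen, were the only 2 members with a negative difference between metastases and metastasis-like primaries. Kif11 stood at 9.72, 9.72, 9.53, 9.95 and 10.18 log2 in the islet tumours, at 9.45, 9.73, 9.95, 10.14 and 10.48 in the metastasis-like primaries and at 9.88, 9.92 and 9.84 in the metastases. Kif20b, a kinesin of late cytokinesis, stood at 8.80, 8.58, 8.41, 9.0 and 8.93 in the islet tumours, at 8.37, 8.74, 8.92, 9.08 and 9.19 in the metastasis-like primaries and at 8.59, 8.75 and 8.72 in the metastases. For both genes the metastases lay inside the range of each primary class. The difference from metastasis-like primaries was -0.07 ± 0.31 log2 (adjusted p = 0.922) for Kif11 and -0.17 ± 0.27 (adjusted p = 0.749) for Kif20b, while the 39 other members ran from 0.26 to 0.74.

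RefSeq places these 2 genes, and none of the other 39, on chromosome 19. Across that chromosome the genes whose mean level lay above that of the median gene had a median difference of -0.55 log2 between metastases and islet tumours, and the medians of the other autosomes and X ran from -0.07 to 0.21. Against metastasis-like primaries the median was -0.45, and the others ran from -0.02 to 0.07. Of these chromosome 19 genes, 90.7% were lower in the mean of the metastases than of the islet tumours, against 30.1% to 59.7% on the other chromosomes. Relative to the islet tumour mean, the chromosome 19 median was -0.60, -0.55 and -0.51 on the 3 metastasis arrays and between -0.12 and 0.08 on all 19 others. The medians for metastasis-like primaries against islet tumours (-0.07) and for hyperplastic against normal islets (-0.02) lay inside the range of the other chromosomes. The 3 other mitotic genes on chromosome 19 had differences from islet tumours of -0.12 (Incenp, the scaffold of the Aurkb complex), -0.11 (Cdca5) and 0.08 (Cep55, which acts at the final cut between daughter cells), and none passed the test. The 52 on other chromosomes had a median of 0.54 log2, with 34 called higher and 2 lower. The number of copies of chromosome 19 was not measured, and the cause of its lower median was not tested.

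**Figure D5:**
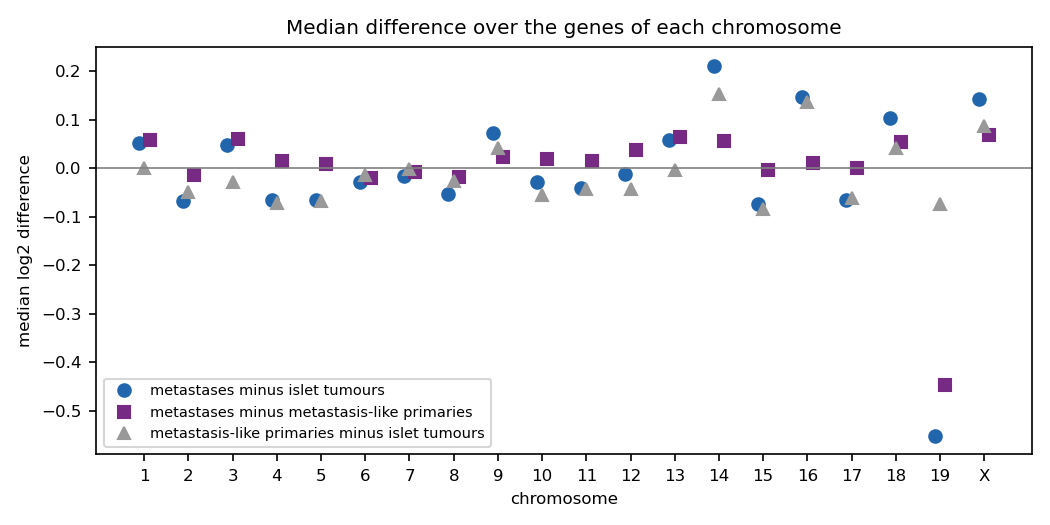
Median log2 difference over the genes of each chromosome, for genes whose mean level lay above that of the median gene, in 3 comparisons (circles, metastases minus islet tumours; squares, metastases minus metastasis-like primaries; triangles, metastasis-like primaries minus islet tumours). Chromosome 19 stands at -0.55 and -0.45 in the comparisons with metastases and at -0.07 between the primary classes.

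The other lists gave the following in liver metastases against islet tumours, where 17.3% of all genes were called higher and 19.3% lower. Of the 55 other mitotic genes, 34 were higher, among them Trip13, which resets the checkpoint (0.83 ± 0.14), and the kinesin Kif18a (1.21 ± 0.21), and 2 were lower, Pttg1 (-0.70 ± 0.13) and the centromere gene Cenpm (-0.46 ± 0.13). Pttg1 was also lower in metastasis-like primaries than in islet tumours (-0.59 log2, adjusted p = 0.000346). Of the 13 anaphase promoting complex subunits, 3 were higher and 1 lower, of the 12 cohesin genes 5 and 2, and of the 14 late cell cycle regulators 5 and 2. Median differences in these lists were 0.05, 0.22 and 0.02 log2, against -0.03 over all genes. Nfyb, a subunit of the CCAAT-binding factor NF-Y, had the lowest adjusted p of these regulators, 0.83 ± 0.10 log2 higher (adjusted p = 1.80e-06). Of the 20 mitotic exit and constitutive spindle genes, 7 were higher and 3 lower. The largest rises were those of the kinetochore gene Dsn1 (0.89 ± 0.18), Kif2a, which depolymerises microtubules at spindle poles (0.87 ± 0.09), and Bub3, a checkpoint protein (0.73 ± 0.12).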

How the data were processed

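RNA from 22 tissue samples was purified with TRIzol, amplified with the whole-transcript sense target protocol and hybridised to Mouse Gene 1.0 ST arrays, per the labels' protocols. The authors processed the scans with aroma.affymetrix, per the series' design text, and the deposited values are log2 levels by their range. Its version, background correction and normalization were not given in the sources used. Of 35511 probe sets, 21789 had 1 gene symbol and were used. For each of 19938 genes the probe set with the highest mean was kept; Kif14 and Top2a have 2.

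The 41 members and the other lists were chosen with earlier results of these data known. Values by array are given for the members with the largest and smallest change in each role from normal to hyperplastic islets, and for up to 3 called members in each direction elsewhere. Limma 3.58.1 (R 4.3.3) fitted 1 mean per group over all 22 arrays. P-values are two-sided with Benjamini-Hochberg adjustment over all genes, and a gene was called at an adjusted p below 0.05. The fit was tested on simulated data with independent noise and, for each gene, the same spread in every group. That test therefore does not cover the wider spread of the normal islets or arrays paired by code.

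Normal, hyperplastic and angiogenic arrays share the codes at the end of their titles (NormalI-93 and HyperplasticI-93, for example). Deviations of same-code arrays correlated at 0.20 to 0.45 between normal and hyperplastic and at 0.35 to 0.48 between hyperplastic and angiogenic islets, so these codes pair the arrays there. Between normal and angiogenic islets they correlated at only 0.06 to 0.14. Unless an alternative is named, the SEs, intervals and p-values given come from the fit without this pairing. Alternatives were a replicate block, only the arrays compared, quantile normalization, median centring, a filter on dim genes that left 14953, the mean of a gene's probe sets, acinar and lymphocyte means as covariates, array weights, a robust trended variance, a change of at least 1 log2 and leaving out each array. The hepatocyte covariate and the fits without the normal arrays and without Spc25 were added after seeing the data. Promoter windows are the RefSeq bases before each listed start.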

Additional observations from a re-analysis of the deposited data

How the results depend on the processing

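The 40 members called from normal to hyperplastic islets, and the 40 from normal islets to islet tumours, stayed within 1.5 times under every alternative run; with an array left out their medians ran from 1.61 to 2.31 and from 1.98 to 2.67 log2, lowest without Normal2007 and highest without NormalI-93. With the replicate block, the islet comparisons kept their counts of 40 and 0. Tumour and metastasis titles share only a prefix, whose deviations did not pair the arrays; with that replicate block 2 members were called between the primary classes (1 higher), 21 between metastases and metastasis-like primaries and 29 between metastases and islet tumours. Of islet tumours against hyperplastic islets, the count of 1 became 11 with only the arrays compared, 9 without the normal arrays, 0 with the lymphocyte covariate and 0 at 1 log2, and ran from 0 to 1 with an array left out. Between the primary classes the count ran from 1 to 3 with an array left out, and was 3 without the normal arrays and 0 without Spc25. Between metastases and metastasis-like primaries the 8 became 14 with only the arrays compared, 4 with quantile normalization, 13 with median centring, 23 with array weights, 5 with the acinar and 4 with the lymphocyte covariate, 0 with the hepatocyte covariate, 28 without the normal arrays and 0 at 1 log2, and ran from 1 to 23 with an array left out. Against islet tumours the 25 became 0 with the hepatocyte covariate and 3 at 1 log2, and ran from 15 (without I-9821-Met) upward. Over all 41 members in the 8 comparisons, no called difference changed sign under an alternative that refits single genes; genes outside the 41 were not refitted. Of the 8 members called against metastasis-like primaries, Ndc80 lost its call most often, under 12 alternatives of 20, and Cdc20 under 1. Shares of all genes called were not counted under the alternatives, so these counts of members cannot be set against them. The causes were not tested. Signal over background was not analysed here, so dim genes have no stated limit.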
